A study of Mus musculus with 54 samples.

Results

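Proteoglycans are proteins that carry long sulfated sugar chains, heparan sulfate or chondroitin and dermatan sulfate, on a core protein. Those of the cell surface, the syndecans and glypicans, hold growth factors close to their receptors, while those of the matrix bind collagen, hyaluronan or the basement membrane. In skeletal muscle, syndecan-3 and syndecan-4 are known as surface markers of satellite cells, the progenitors that repair muscle, and the heparan sulfate chains present fibroblast growth factors and hepatocyte growth factor to them. The 10 genes described here were Sdc1, Sdc2, Sdc3 and Sdc4 (the 4 syndecans), Gpc1 (glypican-1, anchored to the membrane by a lipid), Cspg4 (the transmembrane chondroitin sulfate proteoglycan NG2), Dcn and Bgn (decorin and biglycan, small leucine-rich proteoglycans of the matrix), Vcan (versican, which binds hyaluronan) and Hspg2 (perlecan, a heparan sulfate proteoglycan of basement membranes). They were chosen by name, matched by NCBI gene number, and all 10 were listed in each of 27 deposited expression tables, out of 19653 genes listed in at least 1 table.

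The cells were H2K mouse myogenic progenitors, which proliferate under a conditional immortalizing transgene in γ-interferon and form myotubes after transfer to 5% horse serum. Emerin, encoded by the X-linked gene Emd, is a protein of the inner nuclear membrane whose loss or mutation causes Emery-Dreifuss muscular dystrophy. There were 6 lines: wildtype, emerin-null EMD-/y, and 4 lines made from EMD-/y cells by lentiviral transduction and puromycin selection, carrying wildtype emerin (+EMD) or the disease-causing forms S54F, Δ95–99 and Q133H. Poly-A RNA was sequenced on days 0, 1 and 2 of differentiation, with 3 samples for each of 18 groups, 54 in all. Each genotype was represented by 1 line, and puromycin in the medium and a plating density of 297000 cells a well are stated for the mutant lines, against 232000 for wildtype and EMD-/y, so line, culture and emerin effects cannot be told apart.

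Each table gave 1 mean normalized count a group, over its 3 samples, and no value for a single sample. No test, standard deviation or interval could therefore be computed, and every value below is a level or a difference of means with no replicate check. A gene was called past 2-fold where the log2 ratio of the 2 means of a table was at least 1 in size and the higher mean was at least 10. Because the libraries of a group recur in 2 to 7 tables that were normalized separately, levels were brought to 1 scale and averaged, and the range over tables shows how far the tables differ for the same libraries and no replicate error. The tables listed 17215 to 17876 genes, with 13118 to 13593 over the minimum and a sum of means of 16719500 to 21128000 a group. The median log2 ratio over all genes lay between −0.02 and 0.02, and dividing each mean by its column's sum in place of the deposited normalization moved it to between −0.27 and 0.25.

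The Emd transcript had levels of 1886, 1758 and 1159 in wildtype on days 0, 1 and 2. It was at or below 2.76 in every group of the other 5 lines, +EMD included, so the transcript bears out the deletion and does not check what was transduced. All 9 myogenic markers were listed in all groups, with Myod1 (the myogenic determination factor) between 6008 and 25092. Pax7, which marks satellite cells, was listed at 3.11 in its lowest group, a Q133H group, and at 2122 in its highest. Endothelial markers summed to at most 50.3 over 4 genes in any group, and the leukocyte markers to at most 111, while Sox10, which defines Schwann cells, was in none of the tables.

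Promoter sequences of 7 of the 10 genes were matched by symbol in a RefSeq table of build GRCm38.p6; Sdc2, Gpc1 and Dcn had no entry. Those of Cspg4 and Sdc4, the 2 members most often past 2-fold higher than wildtype, are shown as the 250 bases before the annotated start, 5′ to 3′ on the gene's strand. The windows adjoin the genes at chr9:56865104-56899870 (Cspg4) and chr2:164424247-164443188 (Sdc4). Capitals mark the GC box GGGCGG or its reverse complement.
Cspg4, chr9:56864854-56865103, + strand: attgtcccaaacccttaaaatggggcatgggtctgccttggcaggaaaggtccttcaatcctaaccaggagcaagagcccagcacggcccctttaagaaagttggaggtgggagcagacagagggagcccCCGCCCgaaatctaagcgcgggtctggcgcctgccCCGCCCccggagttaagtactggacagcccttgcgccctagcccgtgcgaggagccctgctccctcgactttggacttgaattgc
Sdc4, chr2:164443189-164443438, − strand: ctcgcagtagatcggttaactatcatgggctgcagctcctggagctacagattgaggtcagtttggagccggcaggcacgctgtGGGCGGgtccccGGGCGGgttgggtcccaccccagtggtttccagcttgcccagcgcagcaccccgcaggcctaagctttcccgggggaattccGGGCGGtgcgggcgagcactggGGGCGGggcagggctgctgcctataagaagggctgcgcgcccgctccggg

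Both strands of these windows were searched for 4 motifs: the GC box, the E-box CANNTG bound by myogenic factors, the AP-1 motif TGANTCA and the TEAD motif GGAATG. The Cspg4 window held 2 GC boxes and the Sdc4 window 4, none overlapping another match. Of the 7 members, 7 held a GC box, against 32.7% of 32851 mouse promoter windows of the same length, and their GC content ran from 60.4% to 76.4%, with a median of 52.4% over all windows. An E-box was found in 3 of the 7 (Sdc1, Bgn and Vcan), against 66.2% of all windows. The Vcan window lay within the annotated span of its gene and the Hspg2 window reached past the start of its gene. These 2 windows therefore do not lie wholly before the gene. AP-1 and TEAD motifs were found in 0 of the 7, against 6.75% and 12.6% of all windows. A match is a run of letters in the window and no evidence that a factor binds there.

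Levels of different genes were compared per kilobase of transcript length. In wildtype cells on day 0, Bgn led with 7738 normalized counts per kb, followed by Gpc1 at 4278, Sdc4 at 1794 and Sdc2 at 1470. Hspg2, Vcan and Sdc1 lay close together, at 946, 938 and 903, and Sdc3 at 790. Dcn at 13.2 and Cspg4 at 10.1 were the lowest. By day 2 Gpc1 had passed Bgn, at 7715 against 3930, Hspg2 followed at 2245, and Sdc3 (168), Dcn (13.0) and Cspg4 (6.77) closed the order. The genes therefore divided into 8 that were well expressed and 2, Dcn and Cspg4, that wildtype cells expressed at a small fraction of the others.

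**Figure D1:**
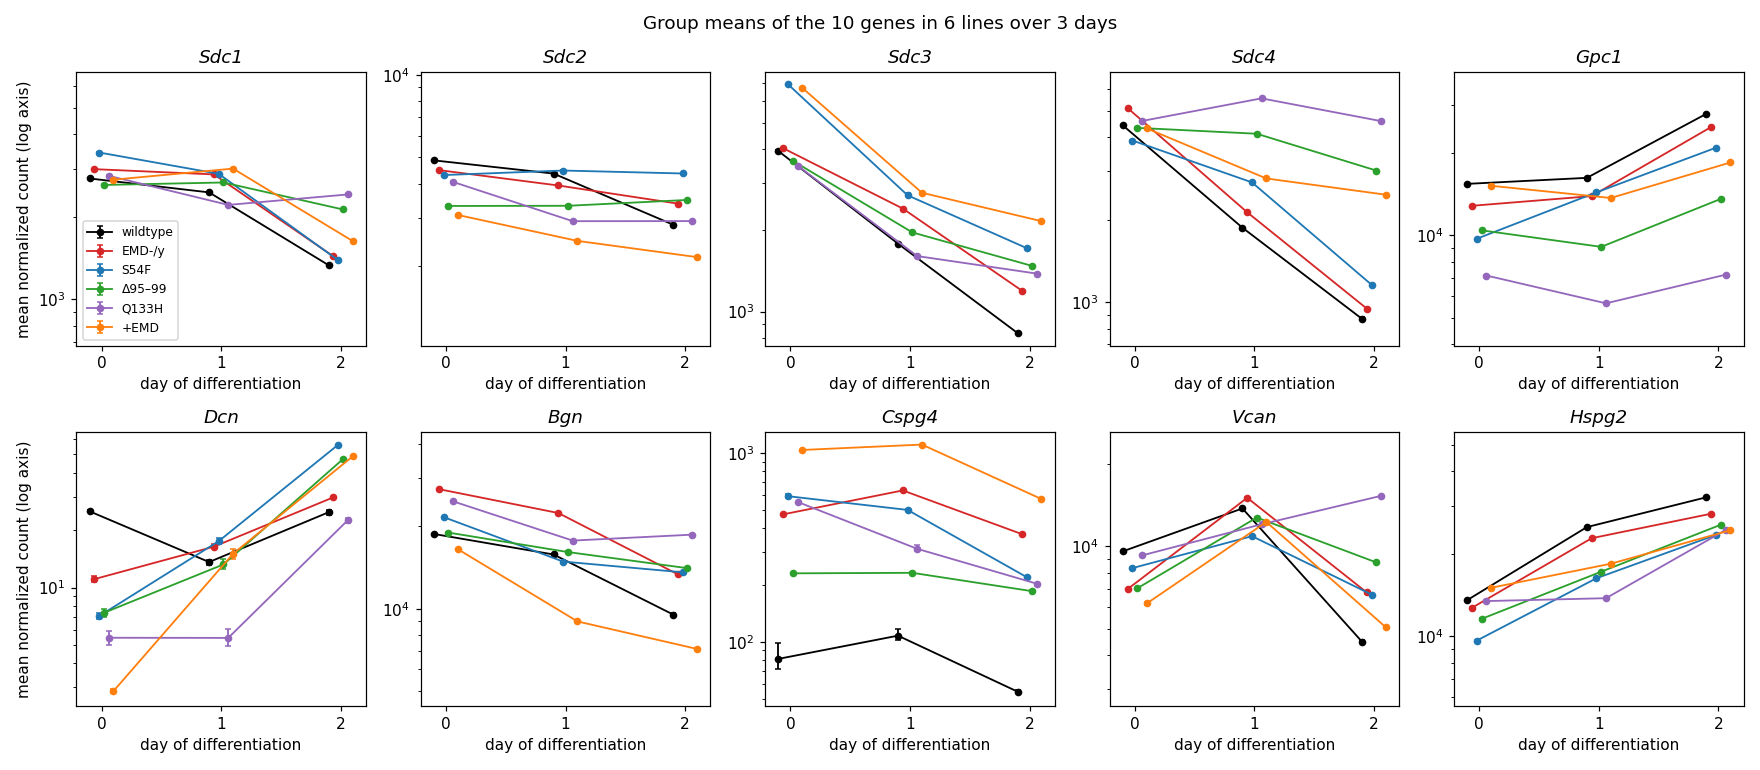
Group means of the 10 genes (normalized count on a common scale, log axis, each panel with its own range) by day of differentiation in the 6 lines; points are group means of 3 samples and bars the range over tables of the same libraries, which is no replicate error. The Cspg4 panel shows wildtype below every other line on all 3 days, and the Sdc4 panel shows the lines together on day 0 and apart on day 2.

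The comparison of each line with wildtype on the same day asks which transcripts differ between that line and wildtype cells. The 5 lines include +EMD, which carries wildtype emerin, beside the lines in which emerin is absent or mutated. Of 150 values (10 genes, 5 lines, 3 days), 34 were past 2-fold, 24 higher and 10 lower than in wildtype. Cspg4 gave 15 of the 24 and Sdc4 5, while Dcn gave 6 of the 10 lower values and Gpc1 the other 4. All 15 comparisons share the wildtype libraries of their day, so the lines are not independent of each other.

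The share of members past 2-fold is read beside the share of all genes tested. On day 0 it was 3 of 10 members in Q133H (15.1% of all genes), 2 each in +EMD (17.3%), Δ95–99 (12.7%) and S54F (12.3%), and 2 in EMD-/y (9.12%). On day 1 it was 4 in Q133H (24.6%), 2 in Δ95–99 (21.3%), and 1 each in +EMD (20.1%), S54F (12.5%) and EMD-/y (7.68%). On day 2 it was 4 in Q133H (33.9%), 3 each in Δ95–99 (22.5%), +EMD (18.8%) and S54F (11.1%), and 1 in EMD-/y (7.98%). With 10 members each call counts for 10%, so most of these shares lie close to the background, and the calls are those of a few genes.

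Past 2-fold in at least 3 of the 5 lines, Cspg4 was higher on day 0, where 4.57% of all genes were, and Dcn lower, where 6.00% were. On day 1, 1 member, Cspg4, was higher (5.85% of all genes) and 0 were lower (8.39%). On day 2 Cspg4 and Sdc4 were higher (7.87% of all genes) and 0 members were lower (5.55%).

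Cspg4, a receptor-like proteoglycan known from pericytes and immature progenitors, was higher in each of the 15 comparisons, by log2 1.12 to 3.80 with a median of 2.43. Its wildtype levels were 81.2, 108 and 54.5 on days 0, 1 and 2. In EMD-/y they were 474, 635 and 372, and in +EMD, the highest line, 1040, 1111 and 571. S54F gave 591, 500 and 220, Q133H 552, 311 and 203, and Δ95–99, the lowest of the 5 lines, 231, 232 and 186. No line's lowest level came down to the highest wildtype level.

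In +EMD, the Cspg4 ratio on day 0 was 13.9-fold and ranked 66 of 13278 genes tested from the highest. In EMD-/y on day 0 it was 6.08-fold and ranked 113 of 13370, and its smallest ratio, 2.17-fold in Δ95–99 on day 1, ranked 1043 of 13519. Cspg4 was also the member whose level moved most between tables after these were brought to 1 scale. The wildtype day 0 libraries had a Cspg4 level of 72.1 in one table and 98.9 in another, a log2 range of 0.46, whereas 0.539% of 11311 genes with a level of at least 50 in that group had a range over 0.3. The log2 ratios of the 15 comparisons exceed that range.

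Because NG2 also marks pericytes, the 5 pericyte and smooth muscle markers were read beside it. All 5 were listed, and their summed level over the 3 days was 1780 to 2919 in wildtype, 2452 to 3556 in EMD-/y and 2326 to 3131 in S54F. It was 1298 to 2433 in +EMD, 996 to 1703 in Q133H and 892 to 1379 in Δ95–99. Pdgfrb (443 to 2922) and Abcc9 (6.01 to 2064) made up most of that sum, while Kcnj8 was at or below 1.45 and Myh11 at or below 26.1 in all groups that listed them. Rgs5 and Abcc9 were past 2-fold higher in at least 3 lines on days 0 and 2, Myh11 higher on day 2 and Pdgfrb lower on day 1. Their part in the Cspg4 result was not tested. On day 1 the sum was above that of wildtype (2919) in EMD-/y (3556) and below it in the other 4 lines. On day 2 it was above wildtype (1780) in EMD-/y (3552), S54F (3131) and +EMD (2433) and below it in Δ95–99 (1262) and Q133H (1117).

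Gpc1 lay below wildtype in 15 of 15 comparisons, 4 of them past 2-fold. Wildtype levels were 15437, 16237 and 27836, and those of Q133H 7140, 5651 and 7189, with log2 ratios of −1.10, −1.53 and −1.94. In Δ95–99 the levels were 10440, 9088 and 13602, past 2-fold on day 2 alone (log2 −1.04). EMD-/y (12837, 13925, 24903), S54F (9732, 14369, 20921) and +EMD (15185, 13706, 18474) had log2 ratios from −0.67 to −0.03. Dividing by the column sums in place of the deposited normalization brought Δ95–99 on day 2 to −0.85, under the threshold.

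**Figure D2:**
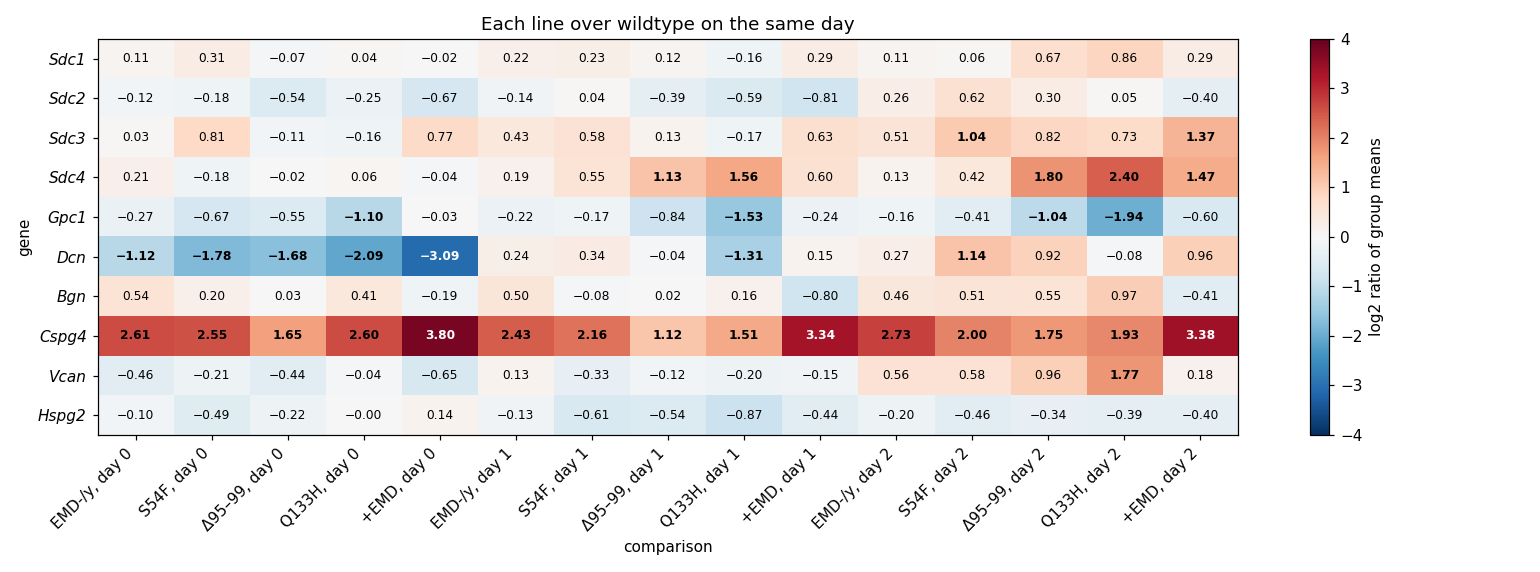
Log2 ratio of each line's mean over the wildtype mean of the same table, for 10 genes (rows) in 15 comparisons (columns, by day); values past 2-fold are in bold, and none has a replicate error. The Cspg4 row is high throughout (1.12 to 3.80), the Gpc1 row low throughout (−1.94 to −0.03), and the Dcn row low on day 0.

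Dcn, which binds collagen fibrils and transforming growth factor β and is typical of fibroblasts, was near the floor of these tables. Its levels were 25.1, 13.6 and 24.8 in wildtype, 11.1, 16.4 and 29.7 in EMD-/y, and 2.86 on day 0 and 48.7 on day 2 in +EMD, where day 1 lay between EMD-/y and wildtype. S54F gave 7.08, 17.5 and 56.1, Δ95–99 7.37, 13.2 and 47.2, and Q133H 5.45, 5.44 and 22.5. On day 0 all 5 lines were past 2-fold below wildtype, from −1.12 in EMD-/y to −3.09 in +EMD. By day 2 the order had turned in part, S54F being past 2-fold higher (log2 1.14), with Δ95–99 at 0.92, +EMD at 0.96, EMD-/y at 0.27 and Q133H at −0.08.

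With a minimum mean of 50 in place of 10 none of the Dcn calls against wildtype remained. Of the 5 fibroblast and fibro-adipogenic markers, Thy1 was at or below 15.8, Dpt at or below 15.4 and Pdgfra between 11.1 and 68.2, while Ly6a ran from 303 to 4675 and Col1a1 from 577 to 19586. Thy1 and Col1a1 were past 2-fold lower in at least 3 lines on day 0, as Dcn was. The 5 markers together summed to 8907 in wildtype on day 0, against 1711 in Q133H, 1839 in +EMD, 4923 in Δ95–99, 6877 in S54F and 8516 in EMD-/y. Their part in the Dcn values was not tested, and in bulk RNA fewer cells of a type and less RNA per cell cannot be told apart.

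Sdc4, the syndecan that acts with integrins at focal adhesions, did not differ past 2-fold from wildtype on day 0 in any line (log2 −0.18 to 0.21). Its wildtype levels fell from 4414 on day 0 to 1868 on day 1 and 868 on day 2. EMD-/y followed closely, at 5107, 2126 and 946, and S54F gave 3889, 2734 and 1156. In Q133H the levels were 4583, 5542 and 4577, in Δ95–99 4325, 4116 and 3020, and in +EMD 4305, 2826 and 2465.

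The lines that began day 0 together were thus apart by day 2. Relative to wildtype, Sdc4 was past 2-fold higher on day 1 in Δ95–99 (log2 1.13) and Q133H (1.56), and on day 2 in Δ95–99 (1.80), Q133H (2.40) and +EMD (1.47). In EMD-/y and S54F it stayed between −0.18 and 0.55 on all days. The 9 myogenic markers were read beside it. Their summed level on day 2, most of it Myh3 and Acta1 of differentiated muscle, was 132439 in Q133H, 348264 in Δ95–99, 504477 in +EMD, 664621 in S54F, 772746 in EMD-/y and 771303 in wildtype. The 5 lines thus had the reverse order by that sum to their order by Sdc4 on day 2, and its part in the Sdc4 values was not tested. Single markers did not all follow the sum: on day 2 Myod1 was 22582 in wildtype, 23613 in Δ95–99 and 25092 in +EMD, and Pax7 57.6, 1014 and 788 in the same lines. Q133H, the line with the highest Sdc4 on that day, had the lowest Myod1 (14655) and the lowest Pax7 (8.07) of the 6 lines.

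Sdc3, the second syndecan of satellite cells, was past 2-fold higher than wildtype on day 2 in S54F (log2 1.04) and +EMD (1.37). Its levels were 3928, 1785 and 833 in wildtype, 6941, 2696 and 1715 in S54F, and 6729, 2755 and 2162 in +EMD. EMD-/y gave 4025, 2407 and 1193, Δ95–99 3617, 1964 and 1477, and Q133H 3468, 1606 and 1383. Wildtype had the lowest level on day 2, and S54F and +EMD were the highest of the 6 lines on every day.

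Vcan, the provisional matrix proteoglycan, was past 2-fold from wildtype in 1 comparison, Q133H on day 2 (log2 1.77), where the level was 15263 against 4475. Its wildtype levels were 9573, 13730 and 4475, and those of Q133H 9247, 12015 and 15263. In the other lines its log2 ratios ran from −0.65 in +EMD on day 0 to 0.96 in Δ95–99 on day 2.

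The remaining 4 members had no value past 2-fold against wildtype. Bgn ran from −0.80 (+EMD, day 1) to 0.97 (Q133H, day 2), Sdc1 from −0.16 to 0.86, and Sdc2 from −0.81 to 0.62. Hspg2 lay below wildtype in 14 of 15 comparisons, from −0.87 in Q133H on day 1 to 0.14 in +EMD on day 0. A value under the threshold does not show that a gene was the same in both lines.

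The lines were next set beside EMD-/y, the cells from which 4 of them were made, using levels on the common scale. Of 30 values a line, 0 were past 2-fold in S54F, where 6.44%, 8.09% and 4.76% of all genes were on days 0, 1 and 2. In Δ95–99 there were 4 (background 9.46%, 17.5% and 19.7%), in Q133H 8 (12.6%, 21.1% and 32.0%) and in +EMD 4 (13.2%, 15.9% and 14.8%). Cspg4 was below EMD-/y in Δ95–99 on all days (log2 −1.04 on day 0, −1.45 on day 1 and at the threshold on day 2) and in Q133H on day 1 (−1.03), and above it in +EMD on day 0 (1.13).

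Sdc4 was above EMD-/y in Q133H on days 1 and 2 (1.38 and 2.27) and on day 2 in Δ95–99 (1.67) and +EMD (1.38). Gpc1 was below it in Q133H on days 1 and 2 (−1.30 and −1.79), where Vcan was above it on day 2 (1.17). Dcn was below EMD-/y in +EMD on day 0 (−1.95) and in Q133H on days 0 and 1 (−1.02 and −1.59). Bgn, which had no call against wildtype, was below EMD-/y in +EMD on day 1 (−1.32), at 8986 against 22365. By the size of the log2 ratio to wildtype, +EMD lay nearer to wildtype than EMD-/y did for 4 of 10 members on day 0 (Sdc1, Sdc4, Gpc1 and Bgn), 1 on day 1 (Dcn) and 2 on day 2 (Bgn and Vcan). Cspg4 was not among them on any day. The share of all genes for which +EMD lay nearer was not counted, so these numbers have no background. Some rest on small differences with no replicate error, such as Sdc1 on day 0 (log2 0.11 in EMD-/y and −0.02 in +EMD).

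The comparison of consecutive days within a line asks which transcripts change as the cells leave the cell cycle and commit to differentiation. Of 120 values, 119 were over the minimum mean and 23 past 2-fold, 7 higher and 16 lower on the later day. From day 0 to day 1 these were 2 members each in wildtype (23.3% of all genes), EMD-/y (21.9%), +EMD (17.8%) and S54F (17.1%), 1 in Q133H (12.6%) and 0 in Δ95–99 (14.5%). From day 1 to day 2 they were 4 in S54F (21.0%), 3 each in wildtype (20.3%) and EMD-/y (19.2%), 2 in +EMD (21.1%), and 1 each in Δ95–99 (14.7%) and Q133H (11.1%).

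Sdc3 had a lower mean on the later day in 12 of 12 transitions, 6 of them past 2-fold. It fell in both wildtype transitions (log2 −1.14 and −1.10), from day 0 to day 1 in S54F (−1.34), +EMD (−1.29) and Q133H (−1.08), and from day 1 to day 2 in EMD-/y (−1.01). The last of these fell just short of the threshold when the table was centred on its median ratio. Sdc4 fell in both transitions in wildtype (−1.24 and −1.11) and in EMD-/y (−1.26 and −1.16), and from day 1 to day 2 in S54F (−1.24). In Q133H its changes were 0.29 and −0.28, in Δ95–99 −0.06 and −0.44, and in +EMD −0.61 and −0.18, none past 2-fold.

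Sdc1, the main syndecan of epithelia, fell past 2-fold from day 1 to day 2 in S54F (−1.05). EMD-/y at −0.99, wildtype at −0.88 and +EMD at −0.87 lay just short of the threshold and passed it when means were divided by the column sums. Δ95–99 was at −0.32 and Q133H at 0.12. Sdc2 had 0 transitions past 2-fold, with a range of −0.62 to 0.08.

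**Figure D3:**
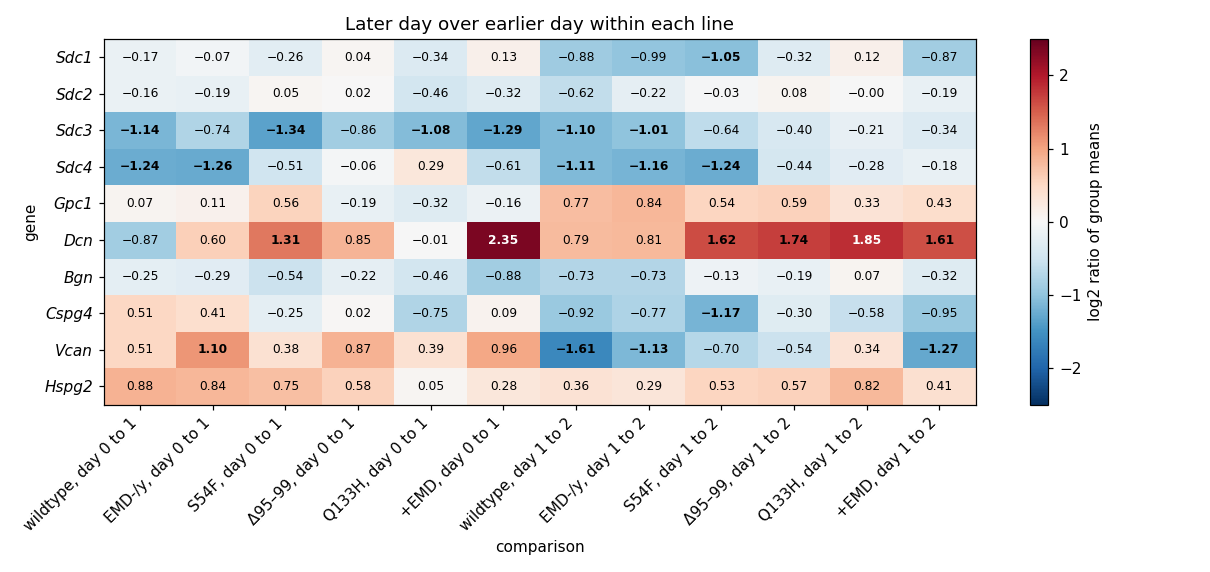
Log2 ratio of the later over the earlier day's mean, for 10 genes (rows) in 12 transitions (columns, 6 lines from day 0 to 1 and then from day 1 to 2); values past 2-fold are in bold, and none has a replicate error. The Sdc3 row is negative and the Hspg2 row positive in all 12 columns, and Dcn has the largest rises, up to 2.35.

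Vcan peaked on day 1 in wildtype, EMD-/y, S54F, Δ95–99 and +EMD. It rose past 2-fold in EMD-/y between days 0 and 1 (1.10) and fell from day 1 to day 2 in wildtype (−1.61), EMD-/y (−1.13) and +EMD (−1.27). In Q133H its values were 0.39 and 0.34, with no decline. Cspg4 fell past 2-fold in 1 transition, day 1 to day 2 in S54F (−1.17), and was lower on day 2 than on day 1 in all 6 lines (−1.17 to −0.30).

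Hspg2 had a higher mean on the later day in 12 of 12 transitions, by 0.05 to 0.88, with none past 2-fold. From day 0 to day 2 wildtype went from 13545 through 25018 to 32154, and EMD-/y from 12700 through 22785 to 28000. Gpc1 was higher on day 2 than on day 1 in all 6 lines, by 0.33 in Q133H to 0.84 in EMD-/y. Bgn was lower on the later day in 11 of 12 transitions, from 18748 on day 0 to 9523 on day 2 in wildtype, and no single transition passed 2-fold.

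Dcn was past 2-fold higher in 6 transitions. It rose from day 1 to day 2 in S54F (1.62), Δ95–99 (1.74), Q133H (1.85) and +EMD (1.61), and from day 0 to day 1 in S54F (1.31) and +EMD (2.35). In wildtype its changes were −0.87 and 0.79 and in EMD-/y 0.60 and 0.81. These are changes between means of 2.86 and 56.1, and with a minimum mean of 50 4 of the 6 calls were lost, both of +EMD, that of Q133H and the earlier one of S54F.

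Whether a line changed differently from wildtype was described by the line's log2 change minus the wildtype change over the same days. Of 100 such differences, 11 were at least 1 in size, and no test of them was possible. From day 0 to day 1 they were Dcn in S54F (2.18, where 8.76% of all genes differed by as much), Dcn in EMD-/y (1.46, 3.84%), Dcn and Sdc4 in Δ95–99 (1.71 and 1.18, 13.4%), Sdc4 and Cspg4 in Q133H (1.53 and −1.26, 19.0%) and Dcn in +EMD (3.22, 10.8%). From day 1 to day 2 they were Vcan in Δ95–99 (1.08, 13.9%) and Vcan, Dcn and Sdc1 in Q133H (1.95, 1.06 and 1.01, 16.9%). There were 0 in EMD-/y (2.81%), S54F (5.63%) and +EMD (11.5%) from day 1 to day 2.

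**Figure D4:**
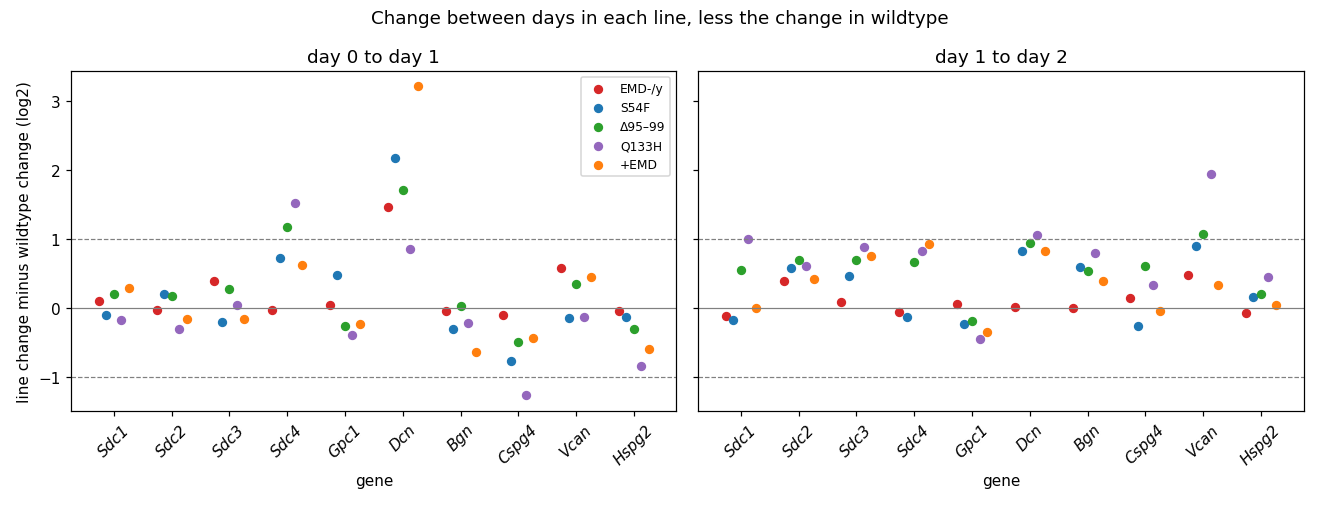
Log2 change between consecutive days in each line minus that in wildtype, for 10 genes (x axis) and 5 lines (colours), from day 0 to 1 (left) and day 1 to 2 (right); dashed lines mark a difference of 1 in size, and the points carry no replicate error. The Dcn points of 4 lines, from means near the floor and less the same wildtype change, stand above 1 on the left. The Vcan point of Q133H at 1.95 is the highest on the right.

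In Q133H, Δ95–99 and +EMD the decline of Sdc4 seen in wildtype did not pass 2-fold in either transition, and in Q133H neither Vcan nor Sdc1 declined from day 1 to day 2. The same difference can be had from the line-against-wildtype tables of both days. That route gave values within 0.38 of the first for all 100, with a median gap of 0.016, and Cspg4 had the largest gap.

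The rest of the proteoglycan machinery was read from lists of related genes, each by its count past 2-fold in at least 3 of the 5 lines, against the shares of all genes given for each day above. The enzymes that build the linker between core protein and sugar chain had 0 of 5 past 2-fold in either direction on any day, with medians from −0.19 to 0.18. Among the chondroitin and dermatan sulfate chain enzymes, 2 of 16 were higher on day 0 (Csgalnact1 and Chst7), 1 of 16 on day 1 (Chst7) and 1 of 14 on day 2 (Csgalnact1), with 0 lower. Chst7, a chondroitin 6-O-sulfotransferase, had log2 ratios of 1.81, 3.20 and 5.63 in Q133H and 1.21, 2.00 and 3.70 in Δ95–99. On day 2 its means were 65.5 in Q133H and 19.2 in Δ95–99, against 1.33 and 1.48 in wildtype. The size of the day 2 ratios is therefore uncertain.

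Among the heparan sulfate chain enzymes, Hs6st2, a 6-O-sulfotransferase, was lower on all 3 days and Extl1 on days 1 and 2, out of 14 to 16 tested. Higher were Hs3st3a1 on day 0, Ndst3 on day 1, and Ext1, Ndst3 and Ndst4 on day 2. Hs6st2 was furthest from wildtype in +EMD (log2 −7.39, −6.65 and −5.45) and not past 2-fold in EMD-/y on any day (−0.28, −0.38 and −0.05). Extl1 had −4.05 in Q133H, −4.33 in Δ95–99 and −4.20 in +EMD on day 1. Extl1 rose in differentiating wildtype cells by 3.19 and 2.75. Hs3st1, a 3-O-sulfotransferase, was higher in Q133H (5.03, 6.33 and 8.13). Its means were 29.5, 106 and 193 in Q133H against 0.903, 1.32 and 0.689 in wildtype, so the size of these ratios is uncertain. In the other lines that listed it, both means were under the minimum. Their ratios, between −0.27 and 0.81, were therefore not counted and give no measured contrast with Q133H.

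Of 3 other glypicans tested, 0 were past 2-fold in 3 lines. Gpc4 in +EMD had log2 ratios of −6.03, −7.44 and −8.15, against 0.66, 0.45 and 0.13 in EMD-/y. Among the small leucine-rich proteoglycans related to Dcn and Bgn, Fmod (fibromodulin) and Ogn were lower on day 0 (2 of 5), Fmod, Ogn and Aspn on day 1 (3 of 6) and Fmod on day 2 (1 of 5), while Podn was higher on day 2. Fmod on day 1 ran from −1.41 in EMD-/y to −6.67 in Q133H.

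The ADAMTS proteases that cleave versican and related proteoglycans were lower in 3 of 5 on day 0 (Adamts1, Adamts4 and Adamts5) and in 4 of 5 on day 1, with Adamts20 added. On day 2 Adamts20 was lower and Adamts9 higher. Adamts5 on day 0 was lowest in +EMD (log2 −3.73) and S54F (−2.75), followed by Q133H (−2.28), Δ95–99 (−1.97) and EMD-/y (−1.32). The median log2 ratio of the 5 proteases on day 1 was −2.39 in Q133H, −1.71 in +EMD, −1.31 in Δ95–99, −1.17 in S54F and −0.02 in EMD-/y. Vcan, their substrate, was between −0.33 and 0.13 on that day.

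Of the hyaluronan synthases and link proteins that bind with Vcan, Has3 was higher on all 3 days, Hapln1 on day 0 and Has1 on day 1. Has3 in +EMD had log2 ratios of 2.09, 2.36 and 2.22, and in EMD-/y 0.34, 0.97 and 0.58. Cd44, the hyaluronan receptor, was higher on day 2 and Hapln4 lower on days 1 and 2. Among other basement membrane and surface proteoglycans, Spock2 was higher on all days and Tgfbr3 on day 2. Spock3 in Q133H had 6.18, 4.96 and 6.77 and Spock1 −5.49, −6.06 and −5.15. The Spock3 means were 91.9, 73.6 and 60.7 in Q133H against 1.27, 2.37 and 0.557 in wildtype, so the size of its ratios is uncertain.

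Of the 3 heparan sulfate editing enzymes, Sulf1, a 6-O-endosulfatase, was higher on days 0 and 2 and the heparanase Hpse lower on day 0. The syndecan cytoplasmic partners had 0 of 3 past 2-fold on any day. Among heparin-binding ligands and receptors, Ptn, which binds Sdc3, was lower on day 0 (1 of 10) and higher on day 2 (1 of 9), while Fgfr3 was lower on days 1 and 2 and Hbegf on day 2. The log2 ratio of Ptn went from −3.48 on day 0 to −1.07 on day 2 in Q133H, from −2.12 to 0.54 in Δ95–99, from −2.26 to 2.26 in S54F and from −1.77 to 1.81 in EMD-/y. In +EMD it went from −0.94 to 2.39. Wildtype Ptn itself fell over these days (log2 −1.51 and then −2.15). The lines' own Ptn means are given as deposited and were not brought to 1 scale. From day 0 to day 2 these means rose in S54F (89.7 to 113, with 143 on day 1). They fell in EMD-/y (126 to 81.5), Δ95–99 (101 to 34.8), Q133H (39.3 to 11.4) and +EMD (225 to 124).

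The genes whose log2 levels were most like each member over the 18 groups were found among 8026 with a level of at least 100 in 1 group and a range of at least 1. The groups of a line share its cells and those of a day their differentiation stage, so the coefficients are descriptions. The closest were Slc25a30 and Twist2 to Sdc4 (Pearson r 0.97 for both), Pdlim4 and Nrbp2 to Gpc1 (0.96 for both), Kctd15 and Chsy1 to Sdc3 (0.95 for both) and Aopep and Sh2b1 to Hspg2 (0.95 for both). Bgn was closest to Mmp16 (0.94), Sdc1 to Dock1 (0.94), Dcn to Wdtc1 (0.93), Vcan to Frmd8 (0.92), Cspg4 to Adcy2 (0.91) and Sdc2 to Gng2 (0.83). Between members, Sdc3 and Hspg2 had r = −0.83 over these 18 groups, and so did Sdc4 and Gpc1.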

How the data were processed

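H2K myogenic progenitors of 6 lines were sequenced on 3 days of differentiation, 3 samples a group. The study's methods name 3 technical replicates for each of 2 biological replicates, so how the samples of a group relate is not certain. Reads were filtered, aligned to mm10 with HISAT2 and compared with DESeq2, per the study's methods and the submitters' processing notes; versions are not given in the sources used here. Each deposited table holds, for 2 groups, the authors' mean normalized counts, which are a signal normalized within that table and not raw counts, together with the authors' own fold changes and p-values, which were not used. Depth per sample is unknown from these tables. A gene at 0 in a group is not listed.

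From the group means, log2 ratios were computed within each table with Python 3.11.15, numpy 2.4.6 and pandas 2.3.3, with no pseudocount. A gene was counted where the higher mean was at least 10, and past 2-fold meant a log2 ratio of at least 1 in size. Table scale factors came from the median ratios of groups that tables share, over 8734 genes with a mean of at least 100. Gene numbers were matched to RefSeq symbols. All members were named; of each other list, up to 3 genes past 2-fold on day 1 with the largest ratios; genes that the lists' counts single out, marker genes and the comparison with EMD-/y were added after values were seen. Functions recovered known changes when tested on simulated data. The planted changes were larger than 2-fold and in genes with a mean of at least 50, so changes near the threshold and lower means were not covered. The members and lists were chosen with earlier results of these data known. Alternatives were other thresholds, minimum means, a pseudocount, 2 other scalings and other backgrounds.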

Additional observations from a re-analysis of the deposited data

How the results depend on the processing

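No paired analysis was possible because the tables hold 1 mean a group and no values for single samples; for the same reason no replicate could be left out. Against wildtype, 34 member values were past 2-fold, 24 higher and 10 lower. At 1.5-fold there were 57 (37 higher, 20 lower) and at 3-fold 21 (16 higher, 5 lower). With a minimum mean of 50 there were 27, of which 4 were lower, since the Dcn calls went. Between days, 23 values were past 2-fold (7 higher, 16 lower), against 53 at 1.5-fold (20 higher, 33 lower) and 6 at 3-fold (5 higher, 1 lower), and a minimum of 50 left 3 higher, the 4 lost being Dcn calls. Without a minimum, with a pseudocount of 1, centred on the median ratio, without predicted genes or, in an alternative chosen after seeing the data, from means averaged over tables, both totals stayed within 1 of these. Leaving out predicted genes could not change the totals, since every member has a gene number. Dropping the minimum could add only the between-day value under it, as 150 of 150 and 119 of 120 values were over it. Dividing by the column sums gave 38 and 30. Against wildtype the median share of all genes was 15.1% at 2-fold, 25.8% at 1.5-fold and 8.82% at 3-fold. With the minimum of 50 it was 11.1% and with column sums 15%. Between days these shares were 18.5%, 37.1%, 8.26%, 15.6% and 19.7% in that order. Under the remaining settings the medians were 12.9% to 16.4% against wildtype and 17% to 18.5% between days. A pseudocount cannot change the sign of a ratio, and the other scalings moved the ratios of a table by far less than the threshold. Signs of values past 2-fold were therefore fixed under these settings, and none changed with the averaged means. The median over members of the highest over the lowest group level was 4.38, and 4.14 without the table scales. The number of transition differences of at least 1 was 11, 11 by the other route and 10 with a pseudocount of 1. Depth per sample is not known, so its limit on Dcn, with means of 2.86 to 56.1, could not be given.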

Other observations

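The Cspg4 mean of the same wildtype libraries differed between tables more than that of nearly all genes. On day 0 it ran from 72.1 to 98.9 over 6 tables after the tables were brought to 1 scale, and on day 1 from 102 to 117 over 7, while on day 2 it stayed within 53.3 and 55.7 over 6. The median gene with a level of at least 50 had a log2 range of 0.006 on day 0. In the other lines the Cspg4 range was at most 0.12. What gave the range was not tested.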
